A study of Rattus norvegicus with 44 samples.

Results

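Proteasome subunits and ubiquitin enzymes were followed in rat liver RNA across 11 groups of arrays from animals given R1 or R2, compounds known here by their code names. The members were all probe sets annotated with 1 gene symbol that starts with Psm, Uba, Ube, Ubq, Usp or Uch. They came to 74 of the 8799 probe sets on the array, for 46 genes, and 7 further probe sets that carry such a symbol among several were left out. After a filter on low signal, 67 member probe sets remained for 43 genes, out of 6361 probe sets for 3696 genes in all. The tested genes were 13 core subunits (Psma and Psmb), 5 ATPases (Psmc), 6 Psmd subunits, 3 Psme activators and 16 genes of the ubiquitin group. Ubac2 and Ubald1 share the prefix but encode UBA-domain proteins that are not ubiquitin enzymes. Ube2e3, Ube2m and Ube2d2b were on the array but below the filter, so nothing is said of them.

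The animals were male Wistar rats, 8 weeks old, dosed by mouth each day with R1, R2 or the citric acid buffer that served as vehicle, and every group received only one of these. In study 1, over 24 h, R1 was given at 10 mg/kg/day (4 arrays), 30 mg/kg/day (3 arrays) and 100 mg/kg/day (3 arrays), next to 3 vehicle arrays. In study 2, over 336 h, R1 was given at 20 mg/kg/day (5 arrays) and 100 mg/kg/day (4 arrays), next to 4 vehicle arrays. Study 3, also over 336 h, held R1 at 30 mg/kg/day (4 arrays) and 5 vehicle arrays. Study 4, over 24 h, held R2 at 300 mg/kg/day (5 arrays) and 4 vehicle arrays. The labels number arrays within a group as replicates without stating what separates them, so each p-value reflects only how far these arrays scatter, and that scatter could be technical.

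The proteasome is the protease that degrades most short-lived and damaged proteins of the cell. Its barrel-shaped core (20S) is built of rings of alpha subunits (Psma genes), which form the gate, and of beta subunits (Psmb genes), a few of which carry the proteolytic sites. The regulatory particle (19S) caps the core: a ring of Psmc ATPases unfolds the substrate and feeds it in, while Psmd subunits bind ubiquitin chains, remove them and hold the particle together. Psmb8 and Psmb9 encode catalytic beta subunits that replace standard ones in the immunoproteasome, the interferon-inducible form that makes peptides for antigen presentation, and Psme1 and Psme2 encode its PA28 cap. Substrates are marked by ubiquitin, which passes from an activating enzyme to a conjugating enzyme (Ube2 genes) and then, with a ligase, to the target. Deubiquitinases (Usp and Uch genes) take it off again. In mammals the standard subunit genes are known to be transcribed together under NRF1 (Nfe2l1) when proteasome capacity falls short, and some of them also under NRF2 (Nfe2l2), which senses electrophiles.

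Values are array signals, quantile normalized over all 44 arrays. Levels are therefore relative within an array and are not compared between probe sets. Fold changes are log2 differences ± SE from limma on log2(signal + 2.90), which understate the change of dim genes. A gene counts as called where its adjusted p (Benjamini-Hochberg, over all probe sets tested) is under 0.05, and each gene stands for its tested probe set with the highest mean. Hepatocyte markers were bright on every array (11 of 12 listed genes on the array, summed signal 55129.9 to 68469), while the 11 lymphocyte markers on the array, of 16 listed, summed to 70.4 to 131. In liver tissue, fewer cells of a type and less RNA per cell cannot be told apart.

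Most of the standard proteasome genes rose at the highest R1 dose and with R2 after 24 h. With R1 at 100 mg/kg/day, 13 of these 22 genes (6 Psma, 5 standard Psmb, 5 Psmc and 6 Psmd, among them Psmd10, an assembly chaperone) were called higher and none lower, and their median fold change was 1.81. Including Ubqln1, 14 of the 43 members were called, all higher, against 5.98% of all tested genes called in either direction and 3.19% called higher. With R2 at 300 mg/kg/day, 19 of the 22 standard genes and 21 of the 43 members were called, again all higher, against 15.4% of all genes called and 6.63% called higher. The standard genes had a median log2 change of 0.99 with R2 and of 0.85 with R1 at 100 mg/kg/day after 24 h, where the median of all tested genes was -0.07 and -0.05. After 336 h the standard genes called higher numbered 10 of 22 with R1 at 30 mg/kg/day, 2 with R1 at 100 mg/kg/day and 0 with R1 at 20 mg/kg/day. Of all tested genes 4.98% and 4.95% were called higher at 30 and 100 mg/kg/day, and 4.27% were called in either direction at 20 mg/kg/day, so the count at 100 mg/kg/day lies near that of all genes.

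**Figure D1:**
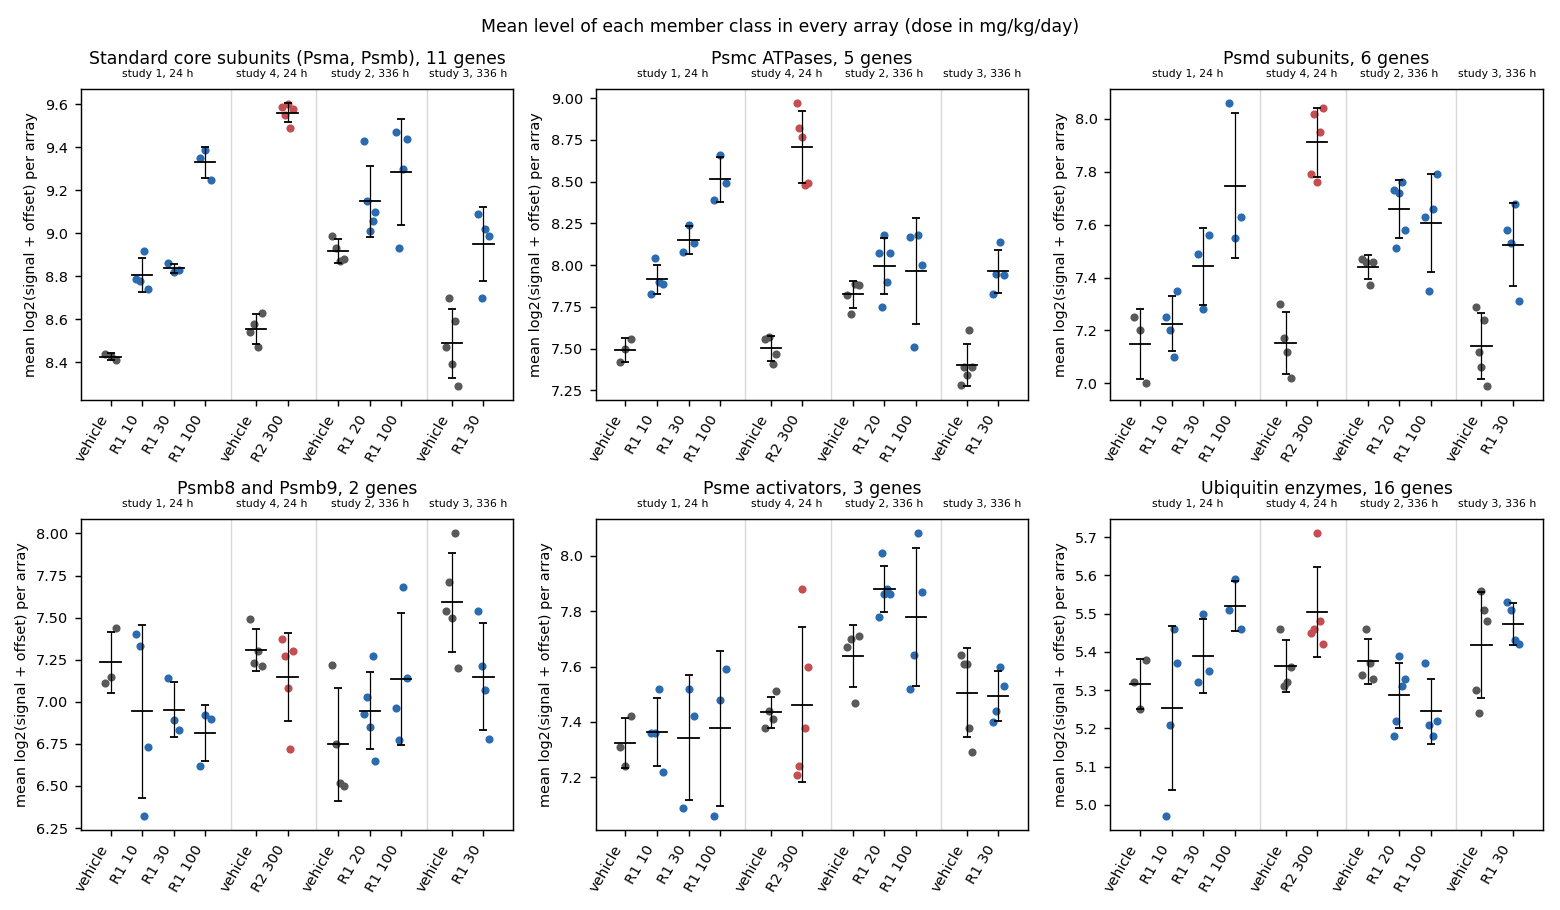
Mean log2(signal + offset) of each member class on every array, by group in the order of study and dose (points are arrays, bars the mean and SD; grey vehicle, blue R1, red R2; axes differ between panels). Group means of the ATPases and the Psmd genes climb with the R1 dose at 24 h, and those of the standard core too, though barely between 10 and 30 mg/kg/day (8.81 and 8.84). All of these stand highest with R2, while the panels for Psmb8 with Psmb9, for Psme and for the ubiquitin group show no such order.

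Within 24 h the mean over the 22 standard genes rose with each R1 dose, but not every class of them did so. Over the 22 standard genes, the mean log2 signal per array was 7.83 to 7.88 on the 3 vehicle arrays of study 1. At 10 mg/kg/day it was 8.15 to 8.19 on 4 arrays, then 8.27 to 8.32 at 30 mg/kg/day and 8.64 to 8.78 at 100 mg/kg/day. No array of one dose fell within the range of another. Between 10 and 30 mg/kg/day the ATPases (group means 7.92 and 8.15) and the Psmd genes (7.22 and 7.44, with overlapping arrays) rose most. The standard core stood at 8.81 and 8.84, with overlapping arrays, and its beta genes at 9.32 and 9.28. Group means rose at each step from vehicle to 100 mg/kg/day for 13 of these 22 genes (59.1%), against 255 of the 3696 tested genes (6.90%). The 3 doses share their vehicle arrays, so their differences from vehicle are not independent of each other. Every treated array lay above every vehicle array for 9 of the 22 genes at 10 mg/kg/day (4.68% of all tested genes), for 14 at 30 mg/kg/day (7.85%) and for 19 at 100 mg/kg/day (11.1%). With R2 this held for 16 of the 22 (6.25%). After 336 h it held for 12 with R1 at 30 mg/kg/day (6.95%), 2 at 20 mg/kg/day (4.33%) and 1 at 100 mg/kg/day (6.79%).

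Single genes passed the test only from 30 mg/kg/day on. At 10 mg/kg/day limma called 0 members (5 higher and 1 lower at an unadjusted p under 0.05), against 1.03% of all genes, although 20 of the 22 standard genes had an estimate above 0 and their median was 0.26. Without R1 10 replicate 1, 1 member was called there. At 30 mg/kg/day the ATPases Psmc3 and Psmc4 were called higher, against 1.33% of all genes called (1.14% higher), and the median of the standard genes was 0.48. Setting 100 directly against 10 mg/kg/day called 10 members, all higher, against 4.09% of all genes (2.11% higher). Without R1 10 replicate 1 that count was 3, without R1 100 replicate 1 it was 5 and without R1 100 replicate 2 it was 4. The 10 were Psma1, Psma4, Psma5, Psmc2, Psmc3, Psmc4, Psmd1, Psmd2, Psmd4 and Ubald1. Psmd2, a scaffold subunit of the regulatory particle, had the largest fitted difference next to Psma5 (1.16 ± 0.32, adjusted p = 0.0298), but its arrays ran from 75.5 to 185 at 10 mg/kg/day and from 153 to 339.6 at 100 mg/kg/day, which overlap. Its call was lost with each study alone (adjusted p = 0.0621) and without R1 10 replicate 1, 2 or 3 or R1 100 replicate 1 or 3 (adjusted p from 0.0674 to 0.276). That of Psma5 was lost with the mean over probe sets (adjusted p = 0.142), in which a dim one (mean signal 5.01) counts equally.

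**Figure D2:**
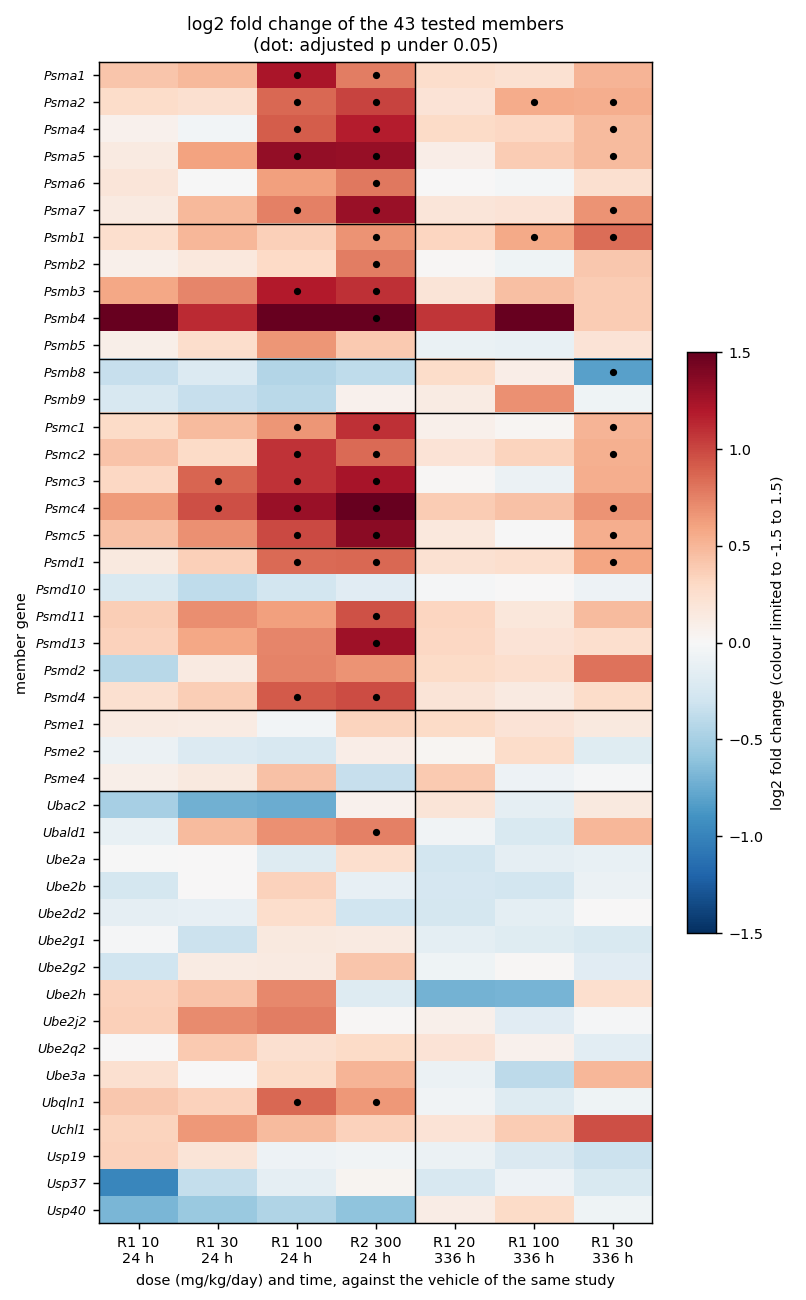
Log2 fold change of the 43 tested members (rows, grouped as alpha, standard beta, immunoproteasome, ATPase, Psmd, Psme and ubiquitin genes) in the 7 comparisons with the vehicle of the same study (columns; a dot marks an adjusted p under 0.05, and colour is limited to 1.5 in size). Dots cover all 5 ATPases and 5 and 6 of the 6 alpha genes at R1 100 and R2 after 24 h, are fewer after 336 h, and are missing from the 8 Ube2 genes.

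Windows upstream of the gene starts are shown for 6 core genes: Psmb8 and standard genes that all carry a match in the bases printed. Other standard genes, among them Psma1, Psma4, Psmb1 and Psmc1, have no match to these motifs in those bases. Psmb5, which is shown, was not called by its brightest probe set in any comparison with vehicle. Whether the motifs go with the response was not tested. RefSeq promoters of the GRCr8 build were matched by symbol for 45 of the 46 member genes. Each line gives the 100 bases before the start, 5′ to 3′ on the gene's strand, with matches to TGACNNNGC, the core of the antioxidant response element bound by NRF1 and NRF2, and to CCAAT, the NF-Y box, in capitals. Psmb5, chr15:32047380-32047479, minus strand, and Psmb2, chr5:144254958-144255057, plus strand, carry TGACNNNGC; in Psmb2 it shares 1 base with a CCAAT, so both are in 1 run of capitals.
Psmb5: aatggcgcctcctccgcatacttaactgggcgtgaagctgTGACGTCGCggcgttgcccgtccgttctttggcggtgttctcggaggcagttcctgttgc
Psmb2: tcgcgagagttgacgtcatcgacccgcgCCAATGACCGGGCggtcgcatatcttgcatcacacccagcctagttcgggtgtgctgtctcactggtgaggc
Psmb3 (chr10:83193687-83193786, plus strand), Psma5 (chr2:198584405-198584504, plus strand) and Psma2 (chr17:55260442-55260541, minus strand) carry CCAAT.
Psmb3: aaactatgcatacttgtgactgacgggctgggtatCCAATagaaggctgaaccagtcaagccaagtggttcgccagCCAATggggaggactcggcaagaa
Psma5: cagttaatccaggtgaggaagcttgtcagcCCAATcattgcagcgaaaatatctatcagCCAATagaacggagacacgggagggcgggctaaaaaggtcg
Psma2: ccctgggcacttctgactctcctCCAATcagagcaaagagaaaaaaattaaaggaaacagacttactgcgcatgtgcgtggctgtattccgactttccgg
Psmb8 (chr20:4657032-4657131, minus strand) has the CCAAT on the opposite strand, where it reads ATTGG.
Psmb8: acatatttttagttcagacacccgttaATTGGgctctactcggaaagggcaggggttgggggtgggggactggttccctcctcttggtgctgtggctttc

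Both strands were searched from 250 bases before to 50 bases after each start. TGACNNNGC was found in 3 of 21 standard proteasome genes with a window (14.3%; Psmb2, Psmb5 and Psmd1), against 13.1% of the 27457 genes of the table. CCAAT was found in 12 of the 21 (57.1%) against 39.6% of all genes, and GAANNTTC, the core of the heat shock element, in 2 of the 21 (9.52%) against 9.09%. These are matches of letters and not binding sites.

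Among the alpha subunits, 5 of 6 were called higher with R1 at 100 mg/kg/day after 24 h and 6 of 6 with R2. The shares of all tested genes called higher were 3.19% and 6.63%. Psma5 had the largest log2 change of the alpha genes in both. Its signals were 190.1, 180.1 and 195 on the vehicle arrays of study 1, 206, 228, 186 and 211 on R1 at 10 mg/kg/day, 265, 312 and 289 at 30 mg/kg/day and 532, 445 and 449.7 at 100 mg/kg/day. The arrays at 30 mg/kg/day lay above all of vehicle and 10 mg/kg/day, and those at 100 mg/kg/day above all others. The log2 change at 100 mg/kg/day was 1.32 ± 0.19 (adjusted p = 3.38e-06). With R2 the signals were 558, 519, 493, 539 and 678 against 230.1, 242, 225 and 194 on vehicle, without overlap (1.31 ± 0.16, adjusted p = 2.78e-08). Psma5 has 3 tested probe sets, of which 2 were called in each of the R1 100 and R2 comparisons. The third gave 0.18 and -0.54, but it was dim, with a mean signal of 5.01 over all arrays against 329 and 242. With the mean over probe sets, in which the dim one counts equally, the R2 call was lost (adjusted p = 0.134). Over all tested probe sets 6.40% and 15.3% were called in these.

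Psma1 rose from signals of 173, 182 and 189 on vehicle to 444, 439 and 404 at R1 100 mg/kg/day after 24 h. The groups did not overlap and the change was 1.23 ± 0.23 (adjusted p = 2.77e-04). Its second probe set, dim at a mean signal of 12.6 against 307, gave -0.23 in the same comparison, and with the mean of both the adjusted p was 0.138. Psma4 read 158, 171 and 146 on vehicle and 317, 302 and 282 at that dose (0.91 ± 0.18, adjusted p = 3.89e-04), and 414 to 484 with R2 against 175 to 204 on vehicle (1.18 ± 0.15, adjusted p = 4.07e-08). Neither pair of groups overlapped. Psma7 read 342 to 446 on the R2 vehicle and 682 to 1369.5 with R2 (1.30 ± 0.17, adjusted p = 1.58e-07), again without overlap.

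Psma2 was called in 4 of the 7 comparisons with vehicle, more often than most members. It read 254, 279 and 314 on the study 1 vehicle and 544, 605 and 409.9 at R1 100 mg/kg/day (0.86 ± 0.21, adjusted p = 0.00576). With R2 it read 671 to 799 against 319.5 to 468 (1.01 ± 0.17, adjusted p = 2.46e-05). The groups were apart in both. Leaving out R1 100 replicate 2 took the first of these to an adjusted p of 0.0532.

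All 5 standard beta genes had an estimate above 0 with R1 at 100 mg/kg/day after 24 h and with R2. By the brightest probe set of each gene, 1 of 5 was called in the first and 4 of 5 in the second, against 3.19% and 6.63% of all tested genes called higher. Psmb2 and Psmb5 each had another probe set called in the first (Psmb2 at 0.78, adjusted p = 0.0374). The gene called by its brightest probe set in the first was Psmb3, a structural beta subunit, which read 315, 332 and 367 on vehicle, 555, 564, 552 and 377 at 10 mg/kg/day, 535, 513 and 644 at 30 mg/kg/day and 839, 856 and 643 at 100 mg/kg/day. Every treated array lay above every vehicle array, with 1.19 ± 0.22 at the highest dose (adjusted p = 2.79e-04). Psmb3 also rose with R2, from 324 to 451 on vehicle to 658 to 1025 (1.10 ± 0.18, adjusted p = 1.86e-05).

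Psmb1, another structural beta subunit, was called after 336 h and with R2. In study 3 it read 294, 289, 295, 365 and 325 on vehicle and 529, 590.1, 579 and 556 at 30 mg/kg/day of R1 (0.84 ± 0.14, adjusted p = 2.45e-05). The groups were well apart, and the adjusted p was the smallest of any member in that comparison. In study 2 it read 509.6, 449, 489 and 375 on vehicle and 809, 443, 819.7 and 693 at 100 mg/kg/day (0.57 ± 0.15, adjusted p = 0.00722). Replicate 2 of that dose lay inside the vehicle range and the other 3 arrays above it.

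Psmb4, a structural beta subunit, spread widely within its groups and is given by its arrays rather than its fold change. It read 375, 269, 239 and 758 on the study 4 vehicle and 3054, 3312, 1898, 387 and 452 with R2, so the arrays overlapped although the comparison was called (1.79 ± 0.54, adjusted p = 0.0170). At R1 10 mg/kg/day it read 1078, 1113, 1365 and 1045 against 293, 260.2 and 306 on vehicle, which did not overlap but was not called (1.99 ± 0.61, adjusted p = 0.117). The model gives each gene 1 residual variance over all groups, and the R1 30 arrays of the same study read 402, 1649.7 and 366. Only 1 of its 3 probe sets was called with R2.

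Of the catalytic subunits, Psmb5, Psmb8 and Psmb9 were tested. Psmb5 carries the chymotrypsin-like site of the standard core, and Psmb8 encodes the subunit that replaces it in the immunoproteasome. Psmb5 read 735, 731 and 688 on the study 1 vehicle, 744, 688, 879 and 765 on R1 at 10 mg/kg/day, 912, 818 and 850.2 at 30 mg/kg/day and 1254, 1244 and 934 at 100 mg/kg/day. The arrays at 30 and 100 mg/kg/day lay above all vehicle arrays, yet the brightest probe set missed the threshold (0.66 ± 0.22, adjusted p = 0.0582). The other two probe sets of the gene were called in that comparison, at 0.92 ± 0.19 (adjusted p = 6.92e-04) and 0.97 ± 0.23 (adjusted p = 0.00474). With R2 the brightest one read 828, 723, 1527, 1406 and 1169 against 929, 769.8, 731 and 889 on vehicle, with overlap (0.39 ± 0.18, adjusted p = 0.132), and the others were again called (0.95 ± 0.15 and 0.72 ± 0.19).

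After 24 h and in study 3 the immunoproteasome subunits did not follow the standard ones. Neither Psmb8 nor Psmb9 was called higher in any of the 7 comparisons with vehicle. Psmb8 read 169, 204 and 244 on the study 1 vehicle and 155, 155 and 140.1 at R1 100 mg/kg/day, where all 3 treated arrays lay below the vehicle arrays but the difference was not called (-0.44 ± 0.25, adjusted p = 0.401). Psmb9, which replaces the caspase-like subunit, gave -0.41 ± 0.31 there (adjusted p = 0.571) and 0.06 ± 0.26 with R2 (adjusted p = 0.922). In study 2 both genes had estimates above 0 at 20 and 100 mg/kg/day of R1. The largest Psmb9 estimate was 0.69 ± 0.27 at 100 mg/kg/day there (adjusted p = 0.112), where the median of the 22 standard genes was 0.22.

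Psmb8 was the only member called lower in any of these 7 comparisons. In study 3 it read 202, 264, 277, 366 and 261 on vehicle and 210.5, 149, 139.6 and 120.3 at R1 30 mg/kg/day after 336 h (-0.82 ± 0.21, adjusted p = 0.00498). Replicate 1 at that dose lay inside the vehicle range and the other 3 below it. The level at that dose (155 ± 39.0, SD, n = 4) was close to that of the study 2 vehicle (153 ± 35.6, n = 4), while the study 3 vehicle stood at 274 ± 59.1 (n = 5). Some markers of other cell types also changed in study 3, where 10.9% of all tested genes were called (4.98% higher and 5.93% lower). The 7 Kupffer cell markers on the array, of 12 listed, summed to 1069.7 to 1584 on vehicle and 768 to 1064 at R1 30 mg/kg/day, with Clec4f called lower among the 6 tested. The 3 red cell markers on the array, of 6 listed, summed to 3832 to 8179.7 and 1809 to 3700.0, with all 3 called lower. Stellate cell markers summed to 362 to 1039 and 287 to 399, with Col1a1 and Col3a1 called lower. Endothelial markers summed to 88.5 to 169.9 and 63.4 to 94.7, with Kdr called lower among the 5 tested. Cholangiocyte markers summed to 43.3 to 107 and 107 to 148, with Epcam called higher among the 4 tested and Spp1 below the filter level on every treated array. The lymphocyte markers summed to 104 to 109 on vehicle and 83.2 to 105 at that dose, with Cd3d, Cd3g, Cd2, Klrd1 and Prf1 below the filter level on every array of both groups. Some of these calls were made in study 2 too, where Psmb8 was not called and its estimates were above 0. There Clec4f was lower and Epcam higher at 20 and 100 mg/kg/day of R1, and Kdr and the red cell gene Hbb-b1 were lower at 100 mg/kg/day. The part of these cell types in the Psmb8 result was not tested.

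The log2 difference between Psmb5 and Psmb8 on the same array was higher with R1 at 30 mg/kg/day after 336 h than with vehicle by 1.02 ± 0.30 (2-sided exact permutation p = 0.0238, adjusted over the 7 comparisons p = 0.167). It was higher by 1.09 ± 0.20 with R1 at 100 mg/kg/day after 24 h, where the exact permutation p of 0.10 is the smallest that 3 against 3 arrays allow. With R2 the difference was 0.77 ± 0.36 (exact permutation p = 0.103). After 24 h with R1 it was 0.44 ± 0.31 at 10 mg/kg/day (exact permutation p = 0.257) and 0.47 ± 0.19 at 30 mg/kg/day (exact permutation p = 0.10). In study 2 the estimates were below 0, at -0.38 ± 0.29 with 20 mg/kg/day (exact permutation p = 0.278) and -0.21 ± 0.18 with 100 mg/kg/day (exact permutation p = 0.229). No comparison passed after adjustment.

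**Figure D3:**
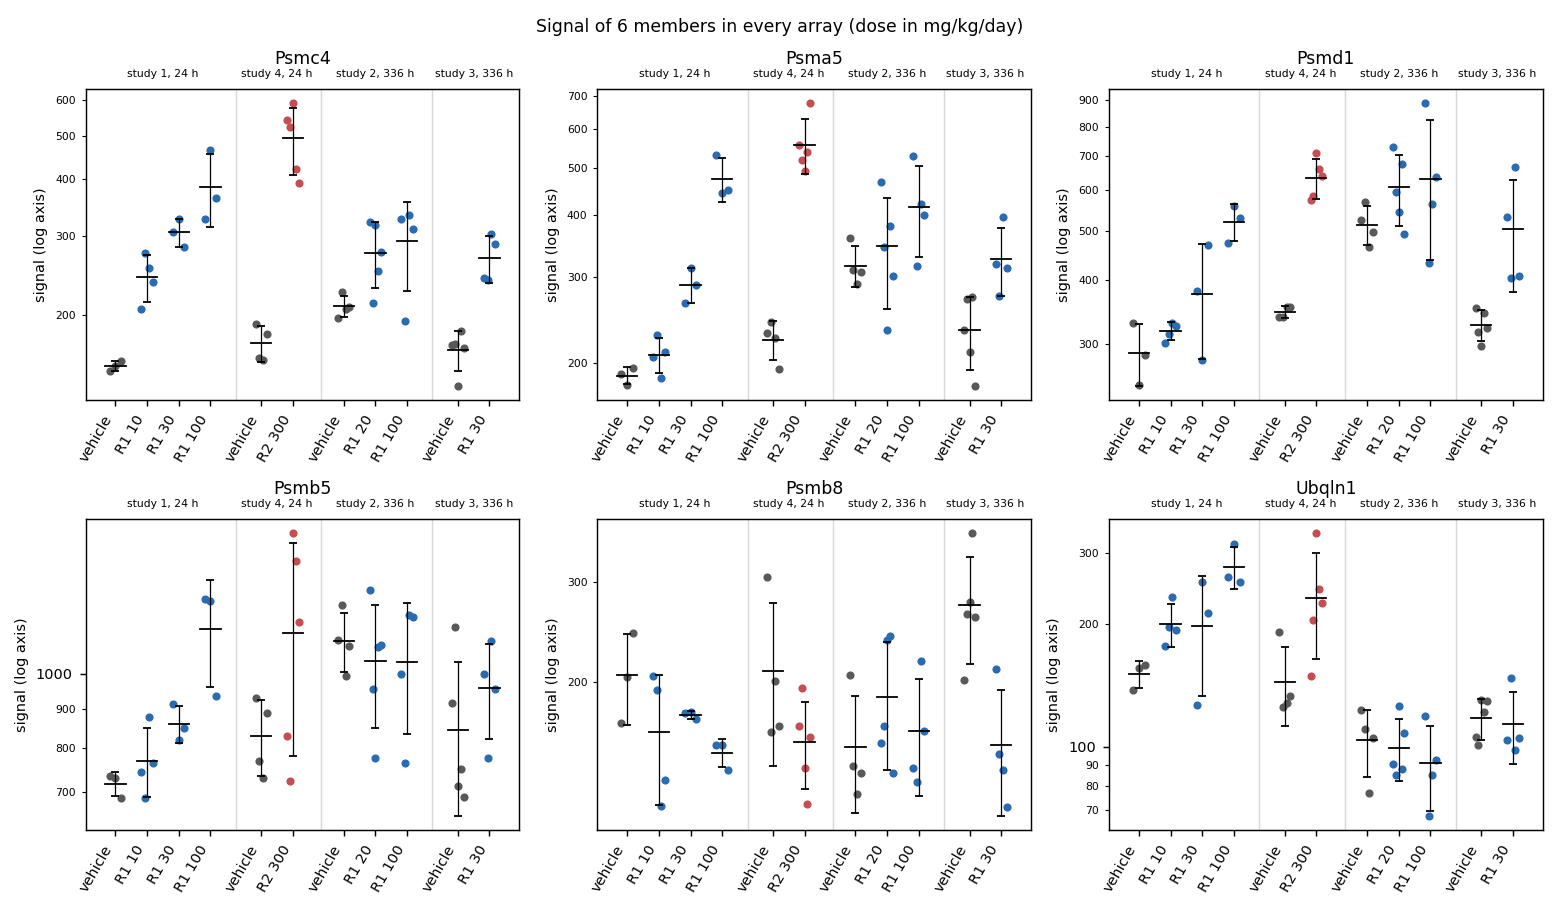
Signal of Psmc4, Psma5, Psmd1, Psmb5, Psmb8 and Ubqln1 on every array (log axis; points are arrays, bars the mean and SD, colours as for the class means). Psmc4 steps up with each R1 dose at 24 h and reaches 392 to 591 with R2, while Psmb8 is highest on the study 3 vehicle.

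Of the 5 ATPases, all were called higher with R1 at 100 mg/kg/day after 24 h (median log2 change 1.08) and with R2 (median 1.24), and 4 with R1 at 30 mg/kg/day after 336 h (median 0.55). The shares of all tested genes called higher in these were 3.19%, 6.63% and 4.98%. With R1 at 100 mg/kg/day after 336 h none was called, and the estimates were above 0 for 3 and below 0 for 2 (median 0.03). Psmc4 was called in 4 of the 7 comparisons with vehicle. It read 150.2, 154 and 158 on the study 1 vehicle, 206, 275, 254 and 236 at 10 mg/kg/day, 305, 327 and 283 at 30 mg/kg/day and 327, 465 and 363 at 100 mg/kg/day. Each dose lay above all vehicle arrays, with 0.97 ± 0.19 at 30 mg/kg/day (adjusted p = 6.45e-04) and 1.29 ± 0.19 at 100 mg/kg/day (adjusted p = 2.70e-06). With R2 it read 542, 523, 591, 421 and 392 against 191, 160.3, 159 and 181, a 2.80-fold rise (1.49 ± 0.15, adjusted p = 4.89e-10), which was the smallest adjusted p of any member in any comparison with vehicle.

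Psmc5 read 127, 138 and 149 on the study 1 vehicle and 261, 294 and 276 at R1 100 mg/kg/day (0.99 ± 0.20, adjusted p = 6.24e-04). With R2 it read 329 to 553 against 149 to 198 (1.35 ± 0.16, adjusted p = 2.59e-08), and the arrays did not overlap in either case. Psmc2 read 175, 194 and 204 on vehicle and 331, 494 and 409 at R1 100 mg/kg/day (1.08 ± 0.20, adjusted p = 2.85e-04), and both of its probe sets were called there and with R2.

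Psmc3 was called at the 30 mg/kg/day dose after 24 h as well. It read 188, 194 and 194 on vehicle and 433, 301 and 341 at that dose, without overlap (0.87 ± 0.23, adjusted p = 0.0356). Leaving out any 1 of vehicle replicates 1, 2 or 3 or of R1 30 replicates 1 or 3 ended that call (adjusted p from 0.0698 to 0.233). At 100 mg/kg/day it read 476, 378 and 384 (1.08 ± 0.23, adjusted p = 0.00145), and with R2 587, 499.9, 234, 284 and 353 against 106, 180.1, 164 and 186 on vehicle (1.24 ± 0.19, adjusted p = 4.53e-06).

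Of the 6 Psmd genes, 2 were called higher with R1 at 100 mg/kg/day after 24 h and 4 with R2. The shares of all tested genes called higher were 3.19% and 6.63%. Psmd4, a ubiquitin receptor of the regulatory particle, read 263, 285 and 239 on vehicle and 672, 419.8 and 438 at that R1 dose (0.92 ± 0.20, adjusted p = 0.00132). Of its 3 probe sets 2 were called there, and the third gave 0.21 ± 0.33 (adjusted p = 0.825). With R2 the brightest probe set of Psmd4 read 452 to 618 against 256 to 325 (0.98 ± 0.16, adjusted p = 1.31e-05), and all 3 were called. Psmd1, a large scaffold subunit, read 330.3, 250.0 and 286 on vehicle and 474, 559 and 529 at R1 100 mg/kg/day (0.85 ± 0.19, adjusted p = 0.00299). Its R2 arrays read 574, 585, 710.0, 662 and 640.1 against 339.6, 339, 355 and 355, a narrow vehicle group with none of the treated arrays near it (0.86 ± 0.16, adjusted p = 9.70e-05).

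The lid subunits Psmd11 and Psmd13 were called with R2 and not with R1, though their estimates were above 0 in all 7 comparisons with vehicle. With R1 at 100 mg/kg/day after 24 h, 5 of the 6 Psmd genes, all but Psmd10, had every treated array above every vehicle array (11.1% of all tested genes). The same 5 were higher there at an unadjusted limma p under 0.05. Psmd13 read 131, 91.4, 95.9 and 51.7 on the study 4 vehicle and 277, 373, 165, 158 and 173 with R2, without overlap (1.27 ± 0.23, adjusted p = 5.47e-05). Psmd11 read 597, 380.4, 396 and 351 and 729, 625, 1132, 774 and 912 (0.95 ± 0.18, adjusted p = 1.87e-04), likewise apart. Psmd10, which encodes gankyrin, an assembly chaperone and not a subunit of the finished particle, was not called, and its estimates lay between -0.38 and -0.00 in the 7 comparisons with vehicle.

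The Psme genes gave no call in any of the 7 comparisons by limma (1 of 3 at an unadjusted p under 0.05 with R2 and 0 of 3 in each of the others). Psme1 gave -0.04 ± 0.19 and Psme2 -0.24 ± 0.21 with R1 at 100 mg/kg/day after 24 h. With R2, Psme1 gave 0.33 ± 0.16 (adjusted p = 0.158) and Psme2 0.10 ± 0.17 (adjusted p = 0.763). Psme4, which encodes the PA200 activator, gave 0.44 ± 0.44 and -0.34 ± 0.36 in these.

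In the ubiquitin group, 1 of 16 genes was called with R1 at 100 mg/kg/day after 24 h and 2 of 16 with R2, all higher. None was called in the other comparisons with vehicle. Of all tested genes 5.98% and 15.4% were called in either direction in these 2 (3.19% and 6.63% higher), so the counts do not set the group apart. Neither of the 2 genes encodes an enzyme. Ubqln1, ubiquilin-1, a shuttle protein that carries ubiquitin-tagged proteins to the proteasome, read 138, 156 and 159 on the study 1 vehicle, 177, 197, 234 and 194 at 10 mg/kg/day, 127, 254 and 214 at 30 mg/kg/day and 262, 315 and 255 at 100 mg/kg/day. The highest dose lay above vehicle (0.86 ± 0.24, adjusted p = 0.0178), but the call was lost without vehicle replicate 1 (adjusted p = 0.0902) or without R1 100 replicate 2 (adjusted p = 0.0958). With R2 it read 149.7, 205, 335, 245 and 226 against 192, 125, 128 and 133, with overlap (0.65 ± 0.20, adjusted p = 0.0178). Ubald1 was called with R2, at 42.7 to 77.4 against 24.4 to 41.2 on vehicle (0.75 ± 0.18, adjusted p = 0.00296), but not with each study fitted alone (adjusted p = 0.0586).

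None of the 8 conjugating enzymes tested among the members (Ube2a, Ube2b, Ube2d2, Ube2g1, Ube2g2, Ube2h, Ube2j2 and Ube2q2) was called by limma in a comparison with vehicle. At an unadjusted p under 0.05, 1 of the 8 was higher with R1 at 30 and 100 mg/kg/day after 24 h and with R2, and 1 was lower with R1 at 20 and 100 mg/kg/day after 336 h. Their median log2 change was 0.25 at R1 100 mg/kg/day after 24 h and 0.08 with R2. The ligase Ube3a and the deubiquitinases Uchl1, Usp19, Usp37 and Usp40 were not called either. The largest estimates among the enzymes, chosen after their values were seen, were -0.98 ± 0.36 for Usp37 at R1 10 mg/kg/day (adjusted p = 0.284) and 0.97 ± 0.38 for Uchl1 at R1 30 mg/kg/day after 336 h (adjusted p = 0.104). Among the conjugating enzymes the largest was 0.77 ± 0.26 for Ube2j2 at R1 100 mg/kg/day after 24 h (adjusted p = 0.0679).

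Other genes of the pathway came from lists. Of 5 tested genes of proteasome assembly, recruitment and control, Nsfl1c (p47, a cofactor of the unfoldase VCP) was called with R1 at 100 mg/kg/day after 24 h (0.74 ± 0.20, adjusted p = 0.0121). With R2, 3 of the 5 were called higher: Nsfl1c (0.90 ± 0.16), Vcp itself (0.80 ± 0.17) and Pomp, the maturation factor of the core (0.62 ± 0.19, adjusted p = 0.0205). Of all tested genes 5.98% were called with that R1 dose and 15.4% with R2 (3.19% and 6.63% higher). Nfe2l2 was called lower with R1 at 30 mg/kg/day after 336 h (-0.82 ± 0.24, adjusted p = 0.0158). A list of ligases and other deubiquitinases had 9 tested genes, of which Cdc34 is a conjugating enzyme and was not called. Mdm2, the ligase for p53 and itself a p53 target, was higher with R1 at 30 and 100 mg/kg/day after 24 h (1.45 ± 0.30 and 1.99 ± 0.30), at 100 mg/kg/day after 336 h (0.96 ± 0.26) and with R2 (1.49 ± 0.24). In the same list Rnf4 was called lower with R1 at 100 mg/kg/day after 336 h, and Cul2, a scaffold of cullin ligases, was called lower with R2 (-0.82 ± 0.27, adjusted p = 0.0332).

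Targets of NRF2 and heat shock genes, which belong to other stress responses, are given beside the standard subunits. Of 15 tested NRF2 targets, 3, 4 and 10 were called higher with R1 at 10, 30 and 100 mg/kg/day after 24 h and 11 with R2. Among all tested genes, called in either direction, the shares were 1.03%, 1.33%, 5.98% and 15.4% in these and 4.27%, 10.9% and 9.96% with R1 at 20, 30 and 100 mg/kg/day after 336 h. After 336 h, 9 were called higher with R1 at 20 mg/kg/day, 11 at 30 mg/kg/day and 12 at 100 mg/kg/day, where the standard proteasome genes called numbered 0, 10 and 2. Of 10 heat shock genes, 2 (Dnajb1 and Hsp90ab1) were called higher with R1 at 100 mg/kg/day after 24 h, and Dnajb1, Hspb1 and Hsp90ab1 with R2, where Hspe1 was lower. With R1 at 30 mg/kg/day after 336 h 3 were higher, and with R1 at 100 mg/kg/day after 336 h none was higher and Hspa1a was lower. Of 11 interferon response genes, none was called with R1 at 100 mg/kg/day after 24 h, Cxcl10 was higher with R2, and with R1 at 30 mg/kg/day after 336 h Cxcl10 was higher and Irf7 lower. Irf7 was also lower with R1 at 20 and 100 mg/kg/day after 336 h. Cxcl10 was lower with R1 at 20 mg/kg/day after 336 h (-1.21 ± 0.33, adjusted p = 0.0204), and Mx1 with R1 at 30 mg/kg/day after 24 h (-1.58 ± 0.43, adjusted p = 0.0453). Of 12 cell cycle genes, Ccnd1, Mcm6 and Mcm7 were higher with R1 at 30 mg/kg/day after 24 h and Ccnd1 at 100 mg/kg/day. With R2, Ccnd1 was higher and 3 were lower, and with R1 at 100 mg/kg/day after 336 h Ccnd1 was lower. Of the single ubiquitin-like gene tested, Nedd8, no comparison with vehicle was called, and it was lower at 100 than at 10 mg/kg/day of R1.

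R1 and R2 were given in different studies and at different doses, so their values are set side by side and not compared. All 14 members called higher with R1 at 100 mg/kg/day after 24 h were also called higher with R2 at 300 mg/kg/day, which is 100.0% of the R1 list and 66.7% of the 21 of the R2 list. Over all tested genes 90 were shared, 76.3% of the R1 list and 36.7% of the R2 list. The members in the R2 list and not in this R1 list were Psma6, Psmb1, Psmb2, Psmb4, Psmd11, Psmd13 and Ubald1. Of these, Psmb1 was called with R1 at 30 and 100 mg/kg/day after 336 h. Another probe set of Psmb2 was called with R1 at 100 mg/kg/day after 24 h. The R2 comparison also had more arrays (5 against 4) than the R1 comparison (3 against 3). Study 1 and study 4 had their own vehicle arrays, whose mean log2 signals over the standard genes were 7.86 ± 0.03 (SD, n = 3) and 7.93 ± 0.05 (n = 4).

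After 336 h the standard subunits were higher than vehicle in study 3, and by less in study 2. With R1 at 30 mg/kg/day in study 3, 10 members were called higher and 1 lower, against 10.9% of all genes (4.98% higher and 5.93% lower). The 10 were Psma2, Psma4, Psma5, Psma7, Psmb1, Psmc1, Psmc2, Psmc4, Psmc5 and Psmd1, and 9 of them were also called with R1 at 100 mg/kg/day after 24 h. Only 1 of the 3 Psma5 probe sets was called, the brightest (0.48 ± 0.16, adjusted p = 0.0397). The next brightest gave -0.01 ± 0.18 (adjusted p = 0.983) and the dim one 1.05 ± 0.60 (adjusted p = 0.328). Psmc4 read 171, 172, 139, 184 and 169 on vehicle and 242, 239, 302 and 288 at this dose, without overlap (0.67 ± 0.15, adjusted p = 0.00182). Psma7 read 265 to 354 and 401 to 587, also without overlap (0.67 ± 0.17, adjusted p = 0.00497). Without R1 30 replicate 3 of study 3 the count of members called fell to 4, and Psma2, Psmc2, Psmc5 and Psmd1 were among those lost (adjusted p from 0.104 to 0.151). Psma2 was also lost with the replicate block (adjusted p = 0.109), with the mean over probe sets (adjusted p = 0.423) and without R1 30 replicate 1 or vehicle replicate 1 or 5. Psmc2 was lost with the mean over probe sets (adjusted p = 0.153) and without R1 30 replicate 2 or 4 or vehicle replicate 1, 3 or 5, and Psmc5 with each study alone (adjusted p = 0.0530) and without vehicle replicate 1 or 3.

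In study 2, limma called 0 members at 20 mg/kg/day of R1 (2 higher and 1 lower at an unadjusted p under 0.05), against 4.27% of all genes. It called Psma2 and Psmb1 at 100 mg/kg/day, against 9.96% of all genes (4.95% higher). Psma2 read 524, 467, 479.8 and 406 on vehicle and 989, 430.0, 751 and 703 at 100 mg/kg/day (0.56 ± 0.18, adjusted p = 0.0389), and its call was lost without any 1 of vehicle replicates 2, 3 or 4 or of treated replicates 1, 3 or 4 (adjusted p from 0.0662 to 0.236), which left 1 member called each time. It was lost too with each study alone (adjusted p = 0.150), without the trend (adjusted p = 0.0558) and with the mean over probe sets (adjusted p = 0.168). Replicate 2 of that dose stood low for these genes: its mean log2 signal over the 22 standard genes was 8.18, against 8.60 to 8.68 on the other 3 arrays and 8.24 to 8.31 on vehicle. Without it 4 members were called, and the direct comparison of 100 with 20 mg/kg/day gave 2 in place of 0. At 20 mg/kg/day 1 member was called without vehicle replicate 4. All 5 arrays at that dose nevertheless stood above vehicle in the mean over the 22 standard genes, at 8.39 to 8.66. Estimates there were above 0 for 20 of the 22 (median 0.20), against 1844 of all 3696 tested genes. With all arrays, setting 100 directly against 20 mg/kg/day called 0 members by limma (2 higher at an unadjusted p under 0.05), against 3.84% of all genes.

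**Figure D4:**
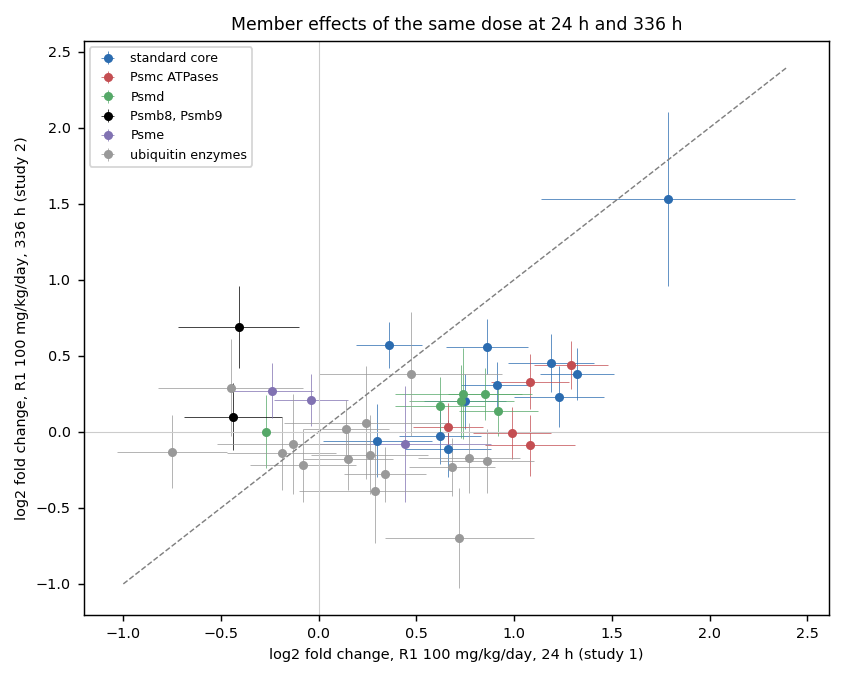
Log2 fold change of each member with R1 at 100 mg/kg/day after 24 h in study 1 (horizontal) and after 336 h in study 2 (vertical), with standard errors and a dashed line of equal change. Most core, ATPase and Psmd points lie below the line, and Psmb8 and Psmb9 lie above it.

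The difference between the 2 effects of R1 at 100 mg/kg/day was tested for each gene. Of the 43 members, 6 were called, all with a smaller effect after 336 h than after 24 h, against 5.09% of all genes in either direction (2.52% lower). The largest was Psmc3, which had changed by 1.08 after 24 h and read 285, 193, 293 and 227 after 336 h against 257, 213, 315 and 273 on vehicle, with overlap (difference of effects -1.17 ± 0.31, adjusted p = 0.0133). Psmc5 gave -1.0 ± 0.26 (adjusted p = 0.0133). The others were Psma5, Psmc4, Psma1 and Ubqln1, with -0.94, -0.84, -1.0 and -1.06. Ubqln1 arrays read 119, 67.5, 85.1 and 92.7 after 336 h against 123, 110.4, 77.0 and 105 on vehicle. The count was 2 without study 1 vehicle replicate 2, without R1 100 replicate 1 of study 1 or without R1 100 replicate 2 of study 2, and it was 3 without study 1 vehicle replicate 1 or study 2 vehicle replicate 2. With the mean over probe sets, which for each of these includes a dim one, Psma5 and Psma1 were not called (adjusted p = 0.496 and 0.679). For the 30 mg/kg/day dose, given in studies 1 and 3, limma called 0 members between times (2 higher and 1 lower at an unadjusted p under 0.05), against 0.947% of all genes. Time and study cannot be told apart in either comparison.

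The vehicle arrays of the 336 h studies themselves differed in these genes. Over the 22 standard genes the study 2 vehicle stood at 8.27 ± 0.03 (SD, n = 4) and the study 3 vehicle at 7.87 ± 0.12 (n = 5), while the treated arrays stood at 8.48 and 8.53 in study 2 (20 and 100 mg/kg/day) and at 8.34 in study 3. Of the 43 members, 11 were called lower and 2 higher on the study 3 vehicle, against 16.7% of all genes (8.06% lower and 8.63% higher). The lower ones were Psma1, Psma2, Psma5, Psma6, Psma7, Psmb1, Psmb2, Psmc1, Psmc2, Psmd1 and Ubald1, from -0.45 to -0.81, and the higher ones were Psmb8 (0.83 ± 0.21, adjusted p = 0.00318) and Psmb9 (0.86 ± 0.26, adjusted p = 0.0147). Psma1 read 359.5, 311, 337 and 283 on the study 2 vehicle and 207, 276, 176, 159.9 and 122 on that of study 3, all lower (-0.81 ± 0.19, adjusted p = 0.00172). Red cell markers also differed, summing to 8353 to 11169 and 3832 to 8179.7, with 2 of 3 called lower, and 4 of 10 heat shock genes were lower on the study 3 vehicle. Among immune genes, Tap2, which encodes a peptide transporter of antigen presentation, Cd4 and Cd14 were called higher there, and Cxcl10 and the macrophage gene C1qb lower. The endothelial genes Lyve1 and Kdr and the stellate gene Acta2 were also lower. Lymphocyte markers summed to 93.0 to 119 on the study 2 vehicle and 104 to 109 on that of study 3, and Kupffer markers to 1136 to 1844 and 1069.7 to 1584. Their part in the difference was not tested. Between the 24 h vehicles of studies 4 and 1, 3 members were called, all of them ubiquitin enzymes: Ube2j2 (0.80 ± 0.24) and Ube2d2 (1.03 ± 0.28) were higher and Ube3a (-1.22 ± 0.37) lower in study 4, against 4.65% of all genes. None was called without study 1 vehicle replicate 2, and 1 was called without study 1 vehicle replicate 1 or 3 or without study 4 vehicle replicate 1, 3 or 4.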

How the data were processed

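The deposited intensity values were made by the authors with MAS5, per the submitters' processing notes; its version and scaling are not given in the sources used here. Sorted values were identical on all 44 arrays (largest difference 0, median 14.5), so the intensities had been quantile normalized together, a step no label records. Array number and signal over background limit the precision.

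After 59 controls were left out, 7006 probe sets had 1 annotated symbol, 308 several and 1426 none. Signals were put on the log2 scale after adding 2.90, their percentile 20. A probe set entered the tests if at least 1 group averaged 9.17 or more, the percentile 40. limma 3.58.1 in R 4.3.3 fitted 1 mean per group over 11 groups (33 residual degrees of freedom, mean-variance trend, 2-sided). The Benjamini-Hochberg adjustment ran over all 6361 probe sets within each comparison. The code was tested on simulated data. Comparisons across studies hold study differences too. Python 3.11.15, numpy 2.4.6, pandas 2.3.3 and matplotlib 3.10.9 made tables and plots.

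The genes described were the catalytic subunits, up to 3 called rises and falls without overlap per class and comparison with vehicle, genes called in at least 4 such comparisons, and up to 3 differences each way between doses or times. The members, the lists of pathway and marker genes and this rule were chosen with earlier results of these data known. Alternatives were other offsets, filters and scalings, no trend, array weights, each study alone, a replicate block, the mean over probe sets, and each array left out. Proteins were not analysed here.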

Additional observations from a re-analysis of the deposited data

Results flagged for a closer look

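Each of 216 sets of arrays, a gene or class in a group of 4 or 5 arrays, was searched for an array far from the others by Dixon's criterion, and 12 were found, where chance gives about 1 in 20. Values are log2(signal + 2.90) or its mean over a class. On the study 2 vehicle, replicate 3 was low for the Psmd genes (7.37 against 7.46 to 7.47) and for the Psme genes (7.47 against 7.67 to 7.71). With R1 at 100 mg/kg/day in study 2, replicate 2 was low for Psmc4 (7.62 against 8.29 to 8.40). With R2, replicate 3 was high for the ubiquitin group (5.71 against 5.42 to 5.48). With R1 at 30 mg/kg/day in study 3, replicate 2 was low for Psma4 (8.02 against 8.32 to 8.33) and high for Ubqln1 (7.24 against 6.66 to 6.75), and replicate 3 was high for Psmd13 (7.03 against 6.38 to 6.49). On the study 3 vehicle, replicate 3 was low for Psma4 (7.36 against 7.82 to 7.99). With R1 at 10 mg/kg/day, replicate 4 was low for Psmb3 (8.57 against 9.11 to 9.15), replicate 2 high for Psmc2 (8.22 against 7.94 to 7.98) and replicate 1 low for Ubald1 (4.17 against 4.45 to 4.48). On the study 4 vehicle, replicate 1 was high for Ubqln1 (7.61 against 7.0 to 7.08).

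The effect of R1 at 100 mg/kg/day was smaller after 336 h than after 24 h, by a limma test of the difference, for Psmc3 (-1.17 ± 0.31, adjusted p = 0.0133), Psmc5 (-1.0 ± 0.26, adjusted p = 0.0133), Psma5 (-0.94 ± 0.25, adjusted p = 0.0173), Psmc4 (-0.84 ± 0.25, adjusted p = 0.0301), Ubqln1 (-1.06 ± 0.32, adjusted p = 0.0376) and Psma1 (-1.0 ± 0.31, adjusted p = 0.0448). These effects come from different studies, which cannot be told apart from time.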

How the results depend on the processing

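Under the alternatives, results for the named genes kept their direction and their side of the threshold in 1188 cases, passed it newly in 16, lost it in 82 and changed direction in 0. Counts of members called stayed within 1.5 times of those reported with these exceptions, whose cause was not tested. With R1 at 10 mg/kg/day, where 0 were called, 1 was called with a filter at the percentile 60, with cyclic loess, with each study alone and with array weights, and 2 with the mean over probe sets. With R1 at 30 mg/kg/day after 24 h, 2 became 1 without the trend, 5 with array weights and 1 with the replicate block. With R1 at 100 mg/kg/day after 336 h, 2 became 1 with each study alone and without the trend. Array weights gave 17 with R1 at 30 mg/kg/day after 336 h and 5 between the 24 h vehicles.

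With each array left out in turn, the counts ran from 0 to 1 (R1 10), 1 to 2 (R1 30, 24 h), 10 to 14 (R1 100, 24 h), 0 to 1 (R1 20), 1 to 4 (R1 100, 336 h), 4 to 14 (R1 30, 336 h) and 19 to 22 (R2). They ran from 3 to 9 for 100 against 10 mg/kg/day, 0 to 2 for 100 against 20, 0 to 0 between times at 30 mg/kg/day, 2 to 6 between times at 100 mg/kg/day, 0 to 2 between the 24 h vehicles and 9 to 13 between the 336 h vehicles. The labels state no pairing by replicate number, and deviations of same-number arrays correlated weakly. Of 38 same-number pairs, 4 had a correlation of deviations over 0.1 (median 0.0362, highest 0.153, median of other pairs -0.0166). In study 2 every same-number pair of a vehicle and a treated array was above 0 (0.0301 to 0.115). Whether arrays of the same number share a batch was not tested. With the replicate block, 16 members were called at R1 100 after 24 h, 9 at R1 30 after 336 h, 20 with R2, 8 for 100 against 10 mg/kg/day and 5 between times at 100 mg/kg/day. Vehicle comparisons could not be fitted with the block, and comparisons across studies could not be fitted with each study alone. Precision differed between members and did not follow brightness alone: the SE of the bright Psmb4 probe set was 0.54 to 0.65 in the comparisons with vehicle.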
